A study of Homo sapiens with 4 samples.

Results

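Autophagy is the route by which cells enclose cytoplasm in a double membrane, the autophagosome, and deliver it to the lysosome for breakdown. A kinase complex around ULK1 starts the process and a lipid kinase complex around PIK3C3 marks the forming membrane. Enzymes that resemble the ubiquitin system then attach ATG8 proteins (the LC3 and GABARAP families) to that membrane, where cargo receptors bind them. The related factors TFEB, TFE3 and MITF switch on genes of lysosomes and autophagy when they enter the nucleus, and ZKSCAN3 is described as a repressor of such genes. Most of this regulation acts on proteins, through phosphorylation and localization, which mRNA levels do not measure.

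The 40 genes described here were fixed by name as the core autophagy machinery, its cargo receptors and these transcription factors. All 40 had a row of their own among the 60609 gene identifiers of the table, and 39 passed the filter on low values, a mean of at least 1 normalized count. The cells were CCRF-CEM, an established human T cell leukaemia line, in the derivative labelled CCRF-CEM/HA-AMPKa2. Both groups carried it, and how the tagged AMPK subunit was introduced, or whether the line is 1 clone, is not given in the sources used here. The 2 control libraries (Ctrl, columns CTRL_7 and CTRL_8) came from cells kept 24 hours in control medium and the 2 others (No glucose, ONG_9 and ONG_10) from cells kept 24 hours without glucose. The comparison asks how mRNA levels differ after a day without glucose.

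Reads over all genes numbered 96698709 in CTRL_7, 24513840 in CTRL_8, 19035535 in ONG_9 and 20081266 in ONG_10. Values below are the deposited normalized counts, and fold changes are log2 differences of normalized count + 1, No glucose minus Ctrl, with the standard error of limma and p-values adjusted by the Benjamini-Hochberg method over 27486 genes. A gene is called at an adjusted p under 0.05. The labels do not say that replicates were separate cultures, so these p-values measure only the spread between the samples, which may be technical. T cell markers were present, with CD3D between 17267 and 18922 normalized counts and LCK between 16504 and 18730 in all 4 libraries, neither of them called. The 9 tested genes of that T cell list included 2 called higher and 2 called lower, CD3E (log2 fold change 0.54 ± 0.05), TRBC1 (0.83 ± 0.10), CD1A (-0.70 ± 0.07) and CD7 (-0.92 ± 0.22), the last lost without CTRL_7, with library totals and with DESeq2. The myeloid list summed to between 33.4 and 54.7 and the erythroid list to at most 7.02, with MPO and HBB at 0. The B cell list, nearly all CD79A, summed to 704 to 710 in Ctrl and 438 to 457 in No glucose, and the adherent cell list, mostly PECAM1 and EPCAM, to 1657 to 1685 and 1075 to 1204. These 2 sums and the 4 called T cell markers moved with the groups, and their part in the results was not tested. PRKAA2, the gene of the AMPK alpha 2 subunit that the line carries in tagged form, stood at 409 in both control libraries, and at 670 and 662 without glucose. The values do not separate the tagged copy from the native gene.

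The called autophagy genes changed by small amounts and in both directions. Of the 39 tested members 11 rose and 7 fell without glucose, and none reached an absolute log2 fold change of 1. The 18 called members are 46.2% of those tested, against 35.1% of all genes tested, and 14.4% of all genes were called higher and 20.7% lower. Protein-coding genes whose mean reached 50 normalized counts, as that of 36 members did, were called in 66.0% of cases, 18.9% higher and 47.2% lower. Exactly 50% of those 36 members were called. The median log2 fold change was 0.04 over the tested members, 0.04 over all genes tested and -0.20 over those protein-coding genes. The groups did not overlap in 28 members (71.8%), against 66.8% of all genes tested and 85.3% of the protein-coding genes. In bulk samples fewer cells of a type and less RNA per cell cannot be told apart.

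Many calls of this size depended on the libraries or on the scaling, while 9 of the 18 were kept in every setting. A lost call need not mean a changed fold change, as ATG2B below shows. Without CTRL_7, the deepest library, 6 members rose and 3 fell, beside 7.46% and 12.2% of all genes. Without CTRL_8, 8 rose and 4 fell, beside 7.44% and 14.6%. Without ONG_9, 15 rose and 9 fell, beside 15.2% and 23.3%, and without ONG_10, 10 rose and 12 fell, beside 11.0% and 20.7%. Scaling to library totals moved the median of all genes tested from 0.04 to 0.24, and then 20 members rose and 3 fell, beside 22.2% and 13.9% of all genes (36.1% in all). Directions below are therefore relative to the authors' size factors. The shares beside the counts in these settings are of all genes tested. No such share was computed for the protein-coding genes with a mean of at least 50. In the main fit 35.1% of all genes tested and 66.0% of those protein-coding genes were called. Across all 15 alternative settings 9 members kept their call and direction: PIK3C3, ATG14, WIPI1, MAP1LC3B, NBR1 and ZKSCAN3 rose, while UVRAG, ATG3 and ATG4C fell. edgeR called 11 members higher and 10 lower (14.4% and 22.9% of all genes, 37.3% in all), and limma-voom 11 and 13 (16.9% and 23.3%); both kept all 18 calls. DESeq2 called 10 higher and 6 lower, beside 12.5% and 25.3% of the genes to which it gave an adjusted p (37.8% in all). The authors' deposited table gave an adjusted p under 0.05 to 16 members, beside 37.8% of all genes with an adjusted p there. All 16 were called in the same direction here. The deposited adjusted p-values of the members equal those of the DESeq2 run (ATG13, 0.0025 in both), so the 2 are not independent.

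**Figure D1:**
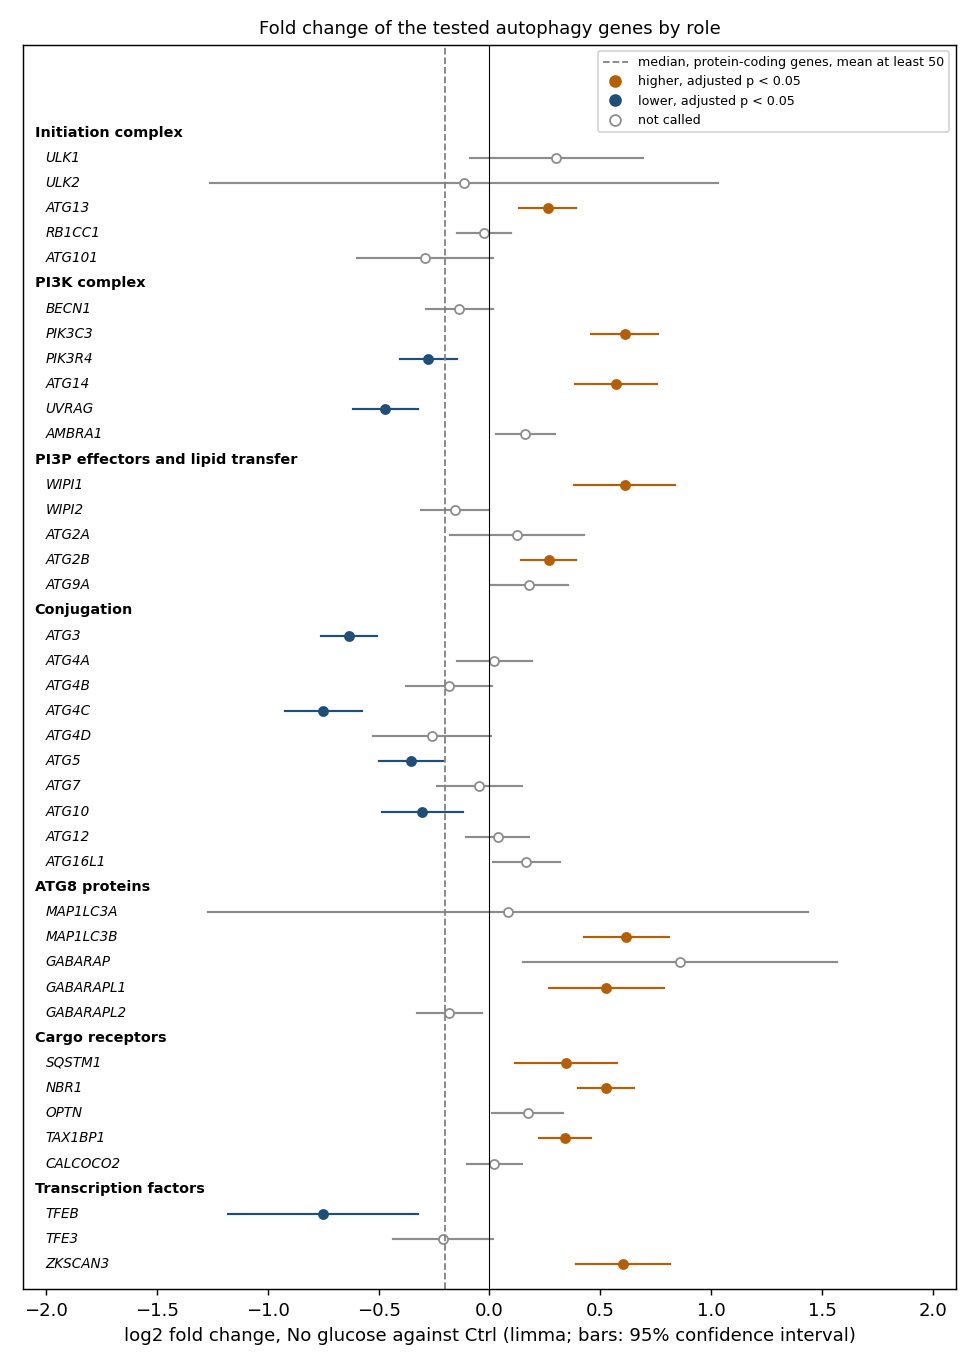
Log2 fold change of each tested member, No glucose against Ctrl, by role, with limma's 95% confidence interval; filled points are called and the dashed line is the median of protein-coding genes with a mean of at least 50 normalized counts (-0.20). The 4 called conjugation genes lie left of 0 and the called ATG8 genes and cargo receptors right of 0, and no point reaches 1 or -1.

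In the initiation complex 1 of 5 members rose and none fell, with a median log2 fold change of -0.02. Of the protein-coding genes with a mean of at least 50, 18.9% rose and 47.2% fell. ULK1, the kinase that starts autophagosome formation and a substrate of both AMPK and mTORC1, had 598 and 514 normalized counts in Ctrl. It had 535 and 871 without glucose, in ONG_9 and ONG_10. One No glucose library lay within the control range and the other far above it, so the log2 fold change of 0.30 ± 0.18 (SE) missed the threshold (adjusted p = 0.22). Its sign rested on ONG_10, since it was -0.05 without that library and 0.65, with adjusted p = 3.1e-05, without ONG_9. ATG13, the adaptor that joins ULK1 to the rest of the complex, went from 2789 ± 92.7 to 3343 ± 70.8 (SD, n = 2), a log2 fold change of 0.26 ± 0.06 (adjusted p = 0.0045). That call was lost without CTRL_7 (0.10) and without CTRL_8 (0.22).

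RB1CC1 (FIP200), the scaffold of the complex, had the highest level per exon length of all members, 1019 normalized counts per kilobase in Ctrl and 1003 without glucose. Its log2 fold change was -0.02, with a 95% confidence interval from -0.14 to 0.10, 0.19 (adjusted p = 0.0070) with library totals, and -0.08 (adjusted p = 0.033) without ONG_9. ATG101, which stabilizes ATG13, had a log2 fold change of -0.29 ± 0.14 (adjusted p = 0.14), and passed the threshold without ONG_10 (0.043). ULK2, the paralog of ULK1, stood between 4.21 and 10.6 normalized counts in the 4 libraries, so a difference was not detectable at this depth.

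In the PIK3C3 lipid kinase complex 2 of 6 members rose and 2 fell (median 0.01), beside 18.9% and 47.2% of the protein-coding genes. The groups did not overlap in any of the 6, beside 85.3% of the protein-coding genes without overlap. PIK3C3 (VPS34, chr18:41955206-42087830 on GRCh38), the catalytic subunit, had 1909 and 1838 normalized counts in Ctrl and 3011 and 2712 without glucose. Both No glucose libraries stood above both controls, a log2 fold change of 0.61 ± 0.07 (adjusted p = 3.1e-05). ATG14 (chr14:55366392-55411858), the subunit that directs the kinase to autophagosome formation, had 679 and 646 in Ctrl and 1043 and 927 without glucose. It rose by 0.57 ± 0.08 on the log2 scale (adjusted p = 0.00024). UVRAG (chr11:75815167-76143195), which takes the place of ATG14 in the form of the complex that works on endosomes, had 2150 and 2187 in Ctrl and 1627 and 1507 without glucose. Its log2 fold change was -0.47 ± 0.07 (adjusted p = 0.00017). UVRAG is given by library because of this contrast with ATG14, a choice made after its values were seen.

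PIK3R4 (VPS15), the regulatory kinase-like subunit of both forms, changed by -0.28 ± 0.06 (adjusted p = 0.0030). With library totals its change was -0.07 (adjusted p = 0.29), and the call was also lost without CTRL_7 (0.15) and without CTRL_8 (0.099). BECN1, the shared scaffold subunit that BCL2 proteins bind, had 1669 and 1652 normalized counts in Ctrl and 1453 and 1573 without glucose. The groups did not overlap, but the log2 fold change of -0.14 ± 0.07 missed the threshold (adjusted p = 0.16), passed it with edgeR (0.048) and without ONG_10 (0.027), and was 0.08 with library totals. PSME3, on the other strand over 4.68% of its exonic bases, had 4301 and 4185 in Ctrl and 2177 and 2180 without glucose, and its part in that value was not tested. AMBRA1, a positive regulator that binds BECN1, had a log2 fold change of 0.16 ± 0.06 (adjusted p = 0.062). It was called higher with library totals (0.00081) and with edgeR on DESeq2 size factors (0.049). The same held with filters at a mean of at least 10 (0.040) and 50 (0.028), and without ONG_9, at a log2 fold change of 0.17.

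Ratios of 2 genes within a library do not depend on how libraries are scaled. These ratios use normalized counts that are not divided by length, and were picked with the values known, so they are descriptions. With 2 libraries against 2 an exact permutation test cannot go below p = 0.333. ATG14 over UVRAG was 0.316 and 0.295 in Ctrl and 0.641 and 0.615 without glucose, 2.06 times the control mean. PIK3C3 over PIK3R4 was 0.618 and 0.608 in Ctrl and 1.176 and 1.09 without glucose. PIK3C3 over BECN1 was 1.14 and 1.11 against 2.07 and 1.72. Every one of these ratios was higher in both No glucose libraries than in either control, while that of ATG13 over ULK1 was not (4.78 and 5.30 against 6.34 and 3.78).

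**Figure D2:**
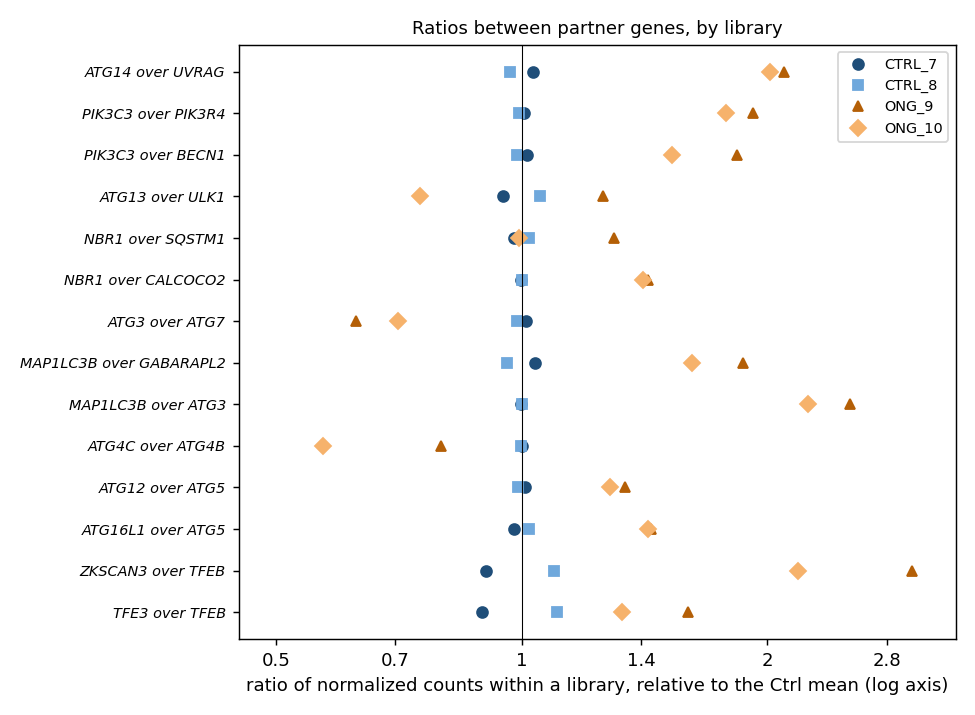
Ratios of normalized counts between partner genes within each library, relative to the Ctrl mean, on a log axis; each symbol is 1 library. ATG14 over UVRAG lies near 2 in both No glucose libraries, and the ratios with ULK1 or SQSTM1 split ONG_9 from ONG_10.

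Next on the membrane act WIPI proteins, which read the lipid made by PIK3C3, ATG2 proteins, which carry lipids, and the scramblase ATG9A. Of these 5 members 2 rose and none fell (median 0.18), beside 18.9% and 47.2% of the protein-coding genes. WIPI1 (chr17:68420948-68457513) had 280 and 253 normalized counts in Ctrl and 423 and 391 without glucose, with both No glucose libraries higher. The log2 fold change was 0.61 ± 0.10 (adjusted p = 0.00067). Of its exonic bases 24.3% also belong to ARSG on the other strand, which had 854 and 907 in Ctrl and 1161 and 1191 without glucose. The counting strand is not given in the sources used here, and the part of ARSG in this value was not tested. WIPI2, the paralog that recruits ATG16L1, had a log2 fold change of -0.16 ± 0.07 (adjusted p = 0.11), 0.055 with library totals, and was called lower by edgeR (0.029) and without ONG_10 (0.018).

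ATG2B went from 3302 ± 0.891 to 3976 ± 113 (SD, n = 2), a log2 fold change of 0.27 ± 0.06 (adjusted p = 0.0029). Without CTRL_7 and without CTRL_8 the call was lost, though the log2 fold change was 0.27 each time. ATG2A, its paralog, had 606 in ONG_9 and 869 in ONG_10, against 695 and 638 in Ctrl, and its log2 fold change of 0.12 ± 0.14 was -0.13 without ONG_10. ATG9A had a log2 fold change of 0.18 ± 0.08 (adjusted p = 0.10), and was called higher with library totals (0.0041) and without ONG_9 (0.030). ATG9A shares 38.8% of its exonic bases with a gene model on the same strand that had between 7.90 and 14.0 normalized counts.

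Of the conjugation genes 4 of 10 fell and none rose. The median was -0.22, beside -0.20 over the protein-coding genes, of which 47.2% fell. With library totals 2 of them fell and 3 rose, and without CTRL_7 or without CTRL_8 only ATG3 and ATG4C fell. ATG3 (chr3:112532509-112562046), the enzyme that transfers ATG8 proteins to lipid, had 3922 and 3820 normalized counts in Ctrl and 2528 and 2464 without glucose. The No glucose libraries stood well below both controls, a log2 fold change of -0.63 ± 0.06 (adjusted p = 5.9e-06). ATG4C (chr1:62784135-62865513), one of the proteases that trim ATG8 proteins and release them from membranes, had 1625 and 1545 in Ctrl and 1004 and 885 without glucose. Its log2 fold change of -0.75 ± 0.08 was the deepest of the members apart from that of TFEB (adjusted p = 1.9e-05).

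The other ATG4 proteases were not called. ATG4A had a log2 fold change of 0.02 ± 0.08, ATG4B of -0.18 ± 0.09 and ATG4D of -0.26 ± 0.12, the last 2 being called lower without ONG_10 (0.0099 and 0.040). Of the summed level of the ATG4 genes per exon length, ATG4C made up 36.8% in each control library and 30.4% and 25.1% without glucose. It was the highest of them in Ctrl, whereas in ONG_10 ATG4B was (31.1%). KRI1 lies on the other strand over 15.0% of the exonic bases of ATG4D. KRI1 had 2927 and 2944 in Ctrl and 2221 and 2446 without glucose, and its part in the ATG4D value was not tested.

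ATG5 and ATG10, of the branch that joins ATG12 to ATG5, fell. ATG5 went from 1785 ± 15.99 to 1397 ± 37.4 (SD, n = 2; log2 fold change -0.35 ± 0.06, adjusted p = 0.0011) and ATG10, the transferring enzyme, from 813 ± 9.19 to 660 ± 52.7 (-0.30 ± 0.08, adjusted p = 0.015). Both calls were lost with library totals (0.072 and 0.38), without CTRL_7 (0.067 and 0.20) and without CTRL_8 (0.062 and 0.15). ATG10 overlaps exons of RPS23, an abundant ribosomal protein gene on the other strand, over 6.86% of its exonic bases. RPS23 had 11740 and 11840 in Ctrl and 9314 and 9212 without glucose, and its part in the ATG10 value was not tested. ATG12, the tag itself, had a log2 fold change of 0.04 ± 0.06. That of ATG16L1, which places the conjugate on the membrane, was 0.17 ± 0.07 (adjusted p = 0.085). For ATG7, the activating enzyme of both branches, it was -0.05 ± 0.09. VGLL4 lies on the other strand over 18.1% of the exonic bases of ATG7. VGLL4 had 1172 and 1081 in Ctrl and 1789 and 1868 without glucose, and its part in the ATG7 value was not tested. ATG12 over ATG5 was 1.39 and 1.37 in Ctrl and 1.85 and 1.77 without glucose, and ATG16L1 over ATG5 was 0.751 and 0.783 against 1.10 and 1.09.

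Of the ATG8 genes, whose proteins are attached to the membrane by these enzymes, 2 of 5 rose and none fell (median 0.53). Among the protein-coding genes 18.9% rose and 47.2% fell. MAP1LC3B (chr16:87383995-87404779), the LC3 protein most used to follow autophagosomes, had 658 and 642 normalized counts in Ctrl and 1072 and 929 without glucose. Both No glucose libraries were higher, a log2 fold change of 0.62 ± 0.09 (adjusted p = 0.00017). MAP1LC3B2, a near-identical copy that can share its reads, stood between 3.03 and 12.6. GABARAPL1 (chr12:10212458-10223130) had 222 and 268 in Ctrl and 365 and 338 without glucose, a log2 fold change of 0.53 ± 0.12 (adjusted p = 0.0042). This call was lost without CTRL_7 (0.13) and without ONG_10 (0.051).

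GABARAPL2, the highest of the ATG8 genes per exon length in these counts, had 1544 and 1629 normalized counts in Ctrl and 1400 and 1399 without glucose. The groups did not overlap and the log2 fold change of -0.18 ± 0.07 narrowly missed the threshold (adjusted p = 0.055). It was called lower in 7 of 15 alternatives, edgeR among them (0.014), and was 0.030 with library totals. Its share of the ATG8 level per exon length was 73.0% and 73.3% in Ctrl and 60.2% and 62.7% without glucose, while the share of MAP1LC3B was 17.8% and 16.5% against 26.3% and 23.8%. MAP1LC3B over GABARAPL2 was 0.426 and 0.394 in Ctrl and 0.766 and 0.664 without glucose. MAP1LC3B over ATG3, a substrate over its enzyme, was 0.168 in both control libraries and 0.424 and 0.377 without glucose.

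GABARAP and MAP1LC3A were low. GABARAP had 18.2 and 12.0 normalized counts in Ctrl and 27.3 and 28.1 without glucose (log2 fold change 0.86 ± 0.32, adjusted p = 0.060), and was called higher with library totals (0.030). It shares 30.5% of its exonic bases with a protein-coding gene model on the same strand that had 0 reads in every library. The level of GABARAP is therefore uncertain, and so are the ATG8 ranking and shares above. MAP1LC3A stood between 2.75 and 7.02 normalized counts.

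**Figure D3:**
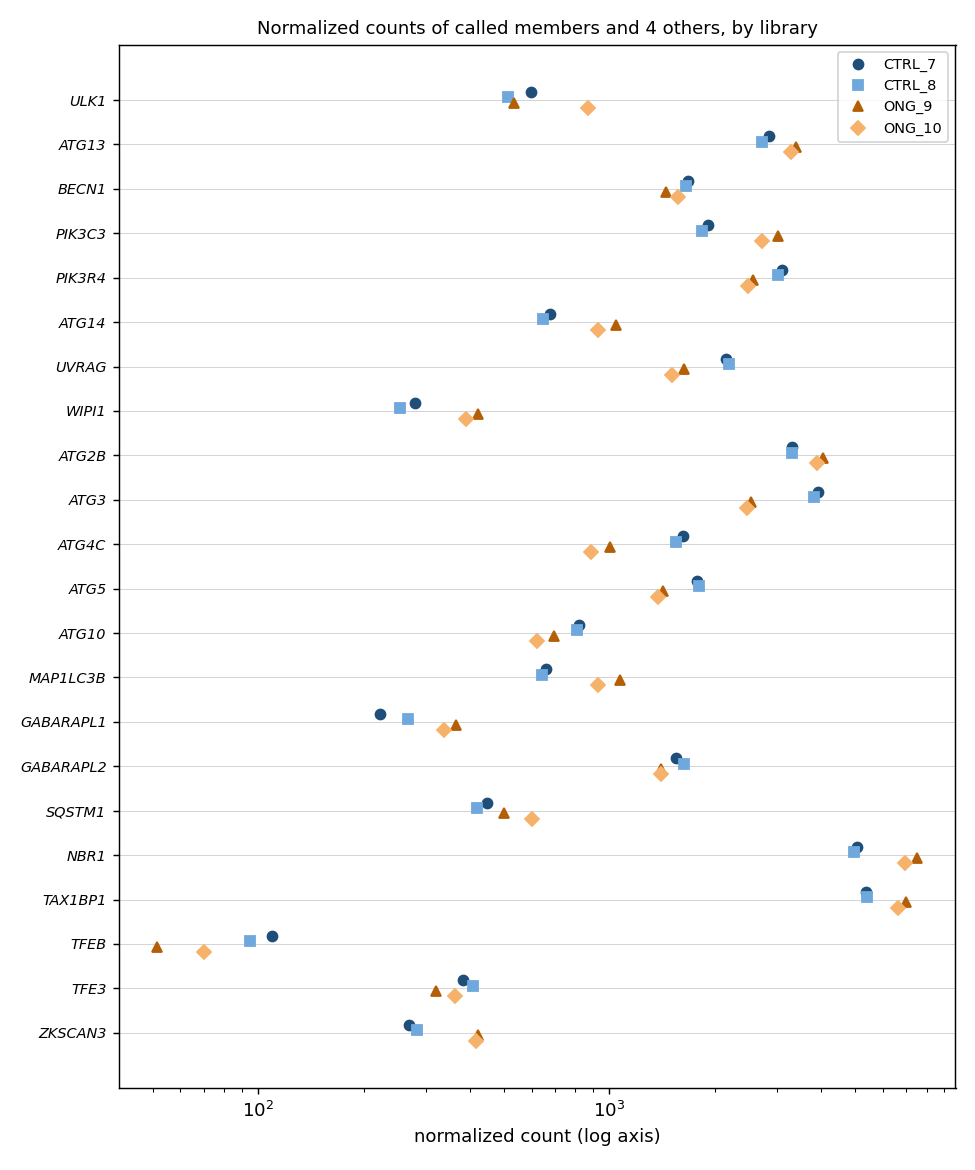
Normalized counts of the 18 called members and of ULK1, BECN1, GABARAPL2 and TFE3 in the 4 libraries, on a log axis; each symbol is 1 library. ULK1 is the gene whose No glucose libraries (535 and 871) straddle a control value, and in the others both No glucose libraries lie on 1 side of both controls.

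The cargo receptors bind ubiquitin-tagged or damaged cargo and hook it to ATG8 proteins. Of these 5 members 3 rose and none fell (median 0.34), beside 18.9% and 47.2% of the protein-coding genes. With library totals all 5 rose, and without CTRL_7 NBR1 alone did. NBR1 (chr17:43170481-43211689) had 5087 and 4975 normalized counts in Ctrl and 7540 and 6954 without glucose. Both No glucose libraries were far above the controls, a log2 fold change of 0.53 ± 0.06 (adjusted p = 2.5e-05). A non-coding gene on the other strand over 5.51% of its exonic bases had 336 and 288 in Ctrl and 634 and 587 without glucose, and its part in this value was not tested. TAX1BP1 went from 5390 ± 21.0 to 6822 ± 250 (SD, n = 2; log2 fold change 0.34 ± 0.05, adjusted p = 0.00040), and its call was lost without CTRL_7 (0.069).

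SQSTM1 (p62), the receptor that also reports on autophagic turnover as a protein, had 448 and 419 normalized counts in Ctrl and 500 and 603 without glucose. It rose by 0.34 ± 0.10 on the log2 scale (adjusted p = 0.024), but this was lost with DESeq2 (0.066) and without CTRL_7 (0.14), CTRL_8 (0.24) or ONG_10 (0.12). MRNIP, on the other strand over 20.7% of the exonic bases of SQSTM1, had 97.2 and 100 in Ctrl and 162 and 160 without glucose, and its part in that value was not tested. OPTN had a log2 fold change of 0.17 ± 0.07 (adjusted p = 0.094), called higher without ONG_10 (0.035). CALCOCO2 (NDP52), a receptor for bacteria and mitochondria, had 5390 and 5250 in Ctrl and 5590 and 5221 without glucose, with a 95% confidence interval of the log2 fold change from -0.10 to 0.15.

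Per exon length, CALCOCO2 was the highest receptor in Ctrl, at 638 normalized counts per kilobase, followed by NBR1 at 599 and TAX1BP1 at 588. Without glucose NBR1 stood at 862, TAX1BP1 at 744 and CALCOCO2 at 649, while SQSTM1 was the lowest in both groups, at 56.6 and 72.1. NBR1 over CALCOCO2 was 0.944 and 0.948 in Ctrl and 1.35 and 1.33 without glucose. NBR1 over SQSTM1 overlapped between the groups, at 11.4 and 11.9 against 15.1 and 11.5.

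Of the 3 tested transcription factors, ZKSCAN3 rose and TFEB fell (median -0.21). Among the protein-coding genes with a mean of at least 50, 18.9% rose and 47.2% fell (median -0.20). ZKSCAN3 (chr6:28349914-28369177), the zinc finger repressor, had 269 and 284 normalized counts in Ctrl and 423 and 417 without glucose. The pairs were tight and well apart, a log2 fold change of 0.60 ± 0.10 (adjusted p = 0.00042). TFEB (chr6:41683978-41736259) had 109 and 94.97 in Ctrl and 51.6 and 70.2 without glucose. Both No glucose libraries were lower, a log2 fold change of -0.75 ± 0.19 (adjusted p = 0.011), but this was lost with DESeq2 (0.082), with library totals (0.073) and without CTRL_7 (0.17).

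TFE3, the relative of TFEB, had 382 and 409 normalized counts in Ctrl and 321 and 363 without glucose. The groups did not overlap, and its log2 fold change of -0.21 ± 0.10 (adjusted p = 0.14) was 0.001 with library totals. MITF, better known from pigment cells, had 1 read in CTRL_7 and 0 in the other libraries. The limit that a count of 0 allows, 3 reads, is 4.01 normalized counts in CTRL_8, 4.55 in ONG_9 and 4.21 in ONG_10, for counting error only. Per exon length TFE3 exceeded TFEB in both groups, at 92.3 against 18.1 normalized counts per kilobase in Ctrl and 79.9 against 10.8 without glucose. ZKSCAN3 over TFEB was 2.47 and 2.99 in Ctrl and 8.21 and 5.94 without glucose.

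TFEB and its relatives bind an E-box that is usually written CACGTG, within a longer motif of lysosomal promoters called CLEAR. RefSeq promoter windows on GRCh38.p14, 250 bases before to 50 after a start, were on hand for 36 of the 40 members. CACGTG, which reads the same on both strands, was present for 2 of the 36 members (5.56%), ATG14 and ATG3, against 8.77% of 27305 genes. For the 13 of 23 lysosomal CLEAR network genes that matched, it was present in 10 (76.9%). That list is known from this motif, so its share is no independent finding. The longer TCACGTGA was in 1 member (2.78%), ATG3, in 5 CLEAR genes (38.5%) and in 321 of all 27305. Stretches around an E-box are shown for the 2 members, which changed in opposite directions, and for 4 CLEAR genes. Each is on the strand of its gene, 5′ to 3′, with the E-box in capitals and its first base counted from the start site.
ATG14, -21, chr14:55411834-55411863, minus strand: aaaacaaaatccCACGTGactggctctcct
ATG3, -18, chr3:112561963-112561992, minus strand: cctttctcacgtCACGTGccgggagagtct
ATG3, 6, chr3:112561940-112561969, minus strand: agagtctagtgtCACGTGaggccccggtgg
MCOLN1, -14, chr19:7522598-7522627, plus strand: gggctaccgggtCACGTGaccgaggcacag
CTSA, -25, chr20:45891298-45891327, plus strand: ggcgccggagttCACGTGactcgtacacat
CD63, -180, chr12:55729172-55729201, minus strand: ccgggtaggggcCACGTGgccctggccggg
NEU1, -126, chr6:31862930-31862959, minus strand: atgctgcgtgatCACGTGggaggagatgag

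Of the 10 CLEAR genes with an E-box 4 fell, 1 rose and 5 were not called. Among the protein-coding genes with a mean of at least 50, 47.2% fell and 18.9% rose. CD63 (-1.53), CTSA (-0.53), MCOLN1 (-0.59 ± 0.13) and GAA (-0.73 ± 0.21) fell, and the log2 fold changes of those not called lay between -0.45 (CTSD) and -0.06 (CTSF). The MCOLN1 call was lost without CTRL_7 (adjusted p = 0.13), with library totals (0.051) and with DESeq2 (0.061). The GAA call was lost in these settings too (0.22, 0.12 and 0.11), and without CTRL_8 (0.058) or ONG_9 (0.079). NEU1 was the gene that rose, and its call was lost without CTRL_7 (0.076) and without ONG_10 (0.080). ATG14, at 0.57, rose with the E-box at -21, and ATG3, at -0.63, fell with 2 of them near its start. LAMP1, with an E-box at 6 places of its window, had a log2 fold change of -0.14 ± 0.06 (adjusted p = 0.11). A FOXO-type motif, TGTTTAC, was in the window of 1 member, CALCOCO2 (2.78%, against 4.19% of all genes), and an ATF4-type motif, TGATGCAA, in none (1.08% of all genes), both searched on both strands. A match describes letters in these windows and shows no binding.

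Around the members, some genes of the pathway lists changed more than any member, and genes are named there by size of change. The medians of these lists lay between -0.28 and 0.13, and those of the members' role groups between -0.22 and 0.53. Of the 23 CLEAR genes, hydrolases and membrane proteins of the lysosome, 11 fell and 2 rose, with a median of -0.28, beside the 47.2% lower and 18.9% higher of the protein-coding genes. CD63, a tetraspanin of late endosomes, had 1497 and 1556 normalized counts in Ctrl and 523 and 533 without glucose (log2 fold change -1.53 ± 0.07, adjusted p = 7.4e-08). The cathepsin CTSB changed by -0.90 ± 0.08, the heparan sulfate-degrading enzyme NAGLU by -0.85 ± 0.19, and the sialidase NEU1 went the other way by 0.84 ± 0.21, as did the peptidase TPP1 by 0.38 ± 0.11. The NAGLU, NEU1 and TPP1 calls were lost without CTRL_7 (0.12, 0.076 and 0.20) and without ONG_10 (0.078, 0.080 and 0.070), and that of TPP1 also without CTRL_8 (0.10) and with DESeq2 (0.088). The list had 6 lower and 4 higher with library totals, 4 and 0 without CTRL_7, and 8 and 1 without CTRL_8.

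Of 17 tested receptors and adaptors for organelles 4 rose and 7 fell (median -0.19), beside 18.9% and 47.2% of the protein-coding genes. BNIP3, a mitophagy receptor, had 2310 and 2311 normalized counts in Ctrl and 8333 and 7925 without glucose, a log2 fold change of 1.81 ± 0.06 (adjusted p = 6.8e-09). Its relative BNIP3L rose by 0.76 ± 0.05, and CALCOCO1, a receptor for the reticulum and Golgi, by 0.83 ± 0.09. TBK1, the kinase that phosphorylates OPTN and SQSTM1, went from 546 ± 36.5 to 208 ± 19.5 (SD, n = 2; log2 fold change -1.39 ± 0.11, adjusted p = 1.8e-06). PHB2, a mitochondrial inner membrane receptor, changed by -0.68 ± 0.05, and the mitochondrial receptor FKBP8 by -0.72 ± 0.17, from 3376 and 2891 to 1477 and 2423. The FKBP8 call was lost without CTRL_7 (0.13), with library totals (0.093) and with DESeq2 (0.14). With library totals 6 rose and 4 fell, 4 fell without CTRL_7, and 10 fell without ONG_9.

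Of 14 genes for fusion of autophagosomes with lysosomes 3 rose and 5 fell (median -0.07), beside 18.9% and 47.2% of the protein-coding genes. EPG5, the tethering factor, had 2031 and 1978 normalized counts in Ctrl and 5787 and 5474 without glucose, a log2 fold change of 1.49 ± 0.06 (adjusted p = 2.6e-08). VPS11 and VPS39, subunits of the HOPS tether, rose by 0.50 ± 0.07 and 0.27 ± 0.06, the latter lost without CTRL_7 (0.11) and without CTRL_8 (0.18), while its partner VPS33A changed by -0.47 ± 0.08. The SNARE genes VAMP8 (-1.04 ± 0.07) and SNAP29 (-0.55 ± 0.08) fell, and STX17, their autophagosomal partner, had a log2 fold change of 0.07 ± 0.06. With library totals 5 rose and 3 fell, and without CTRL_7 3 fell. Beside the same shares of the protein-coding genes, 1 of 9 tested further core genes rose and none fell (median 0.02). It was WDR45, another reader of the PIK3C3 lipid, at 0.46 ± 0.12, lost without CTRL_7 (0.16) and ONG_10 (0.076). With library totals 5 of these rose.

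Among genes that control TFEB and TFE3, 6 of 12 rose and 4 fell (median 0.13), beside 18.9% and 47.2% of the protein-coding genes. FNIP1, a partner of folliculin in control of the Rag GTPases, had 2576 and 2612 normalized counts in Ctrl and 5454 and 5180 without glucose, a log2 fold change of 1.03 ± 0.06 (adjusted p = 1.8e-07). Of the Rag genes RRAGC (0.54 ± 0.09) and RRAGB (0.51 ± 0.09) rose and RRAGD (-0.62 ± 0.06) fell. TFEC, the remaining relative of TFEB, went from 62.2 and 73.6 to 19.7 and 11.2, a log2 fold change of -2.11 ± 0.30 (adjusted p = 0.00018). XPO1, which exports TFEB from the nucleus among many other proteins, changed by -0.68 ± 0.05. Without CTRL_7 and without CTRL_8, 3 of the list rose and 3 fell.

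Of 10 genes for kinases upstream of ULK1, 1 rose and 4 fell (median -0.17), beside 18.9% and 47.2% of the protein-coding genes. The rise was that of PRKAA2 (0.70 ± 0.08, adjusted p = 4.5e-05). MTOR changed by -0.38 ± 0.05, the AMPK-activating kinase STK11 (LKB1) by -0.65 ± 0.13 and the mTOR partner MLST8 by -0.45 ± 0.16. The STK11 and MLST8 calls were lost with library totals (0.062 and 0.37). They were also lost without CTRL_7, at log2 fold changes of -0.61 and -0.34. The MLST8 call (adjusted p = 0.047) was further lost with DESeq2 (0.33) and without ONG_9, at a log2 fold change of -0.14. A pseudocount of 0.5, no filter and a filter at a mean of at least 50 lost it too. Without CTRL_7 1 of the list fell, MTOR, and with library totals 3 rose and 1 fell.

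**Figure D4:**
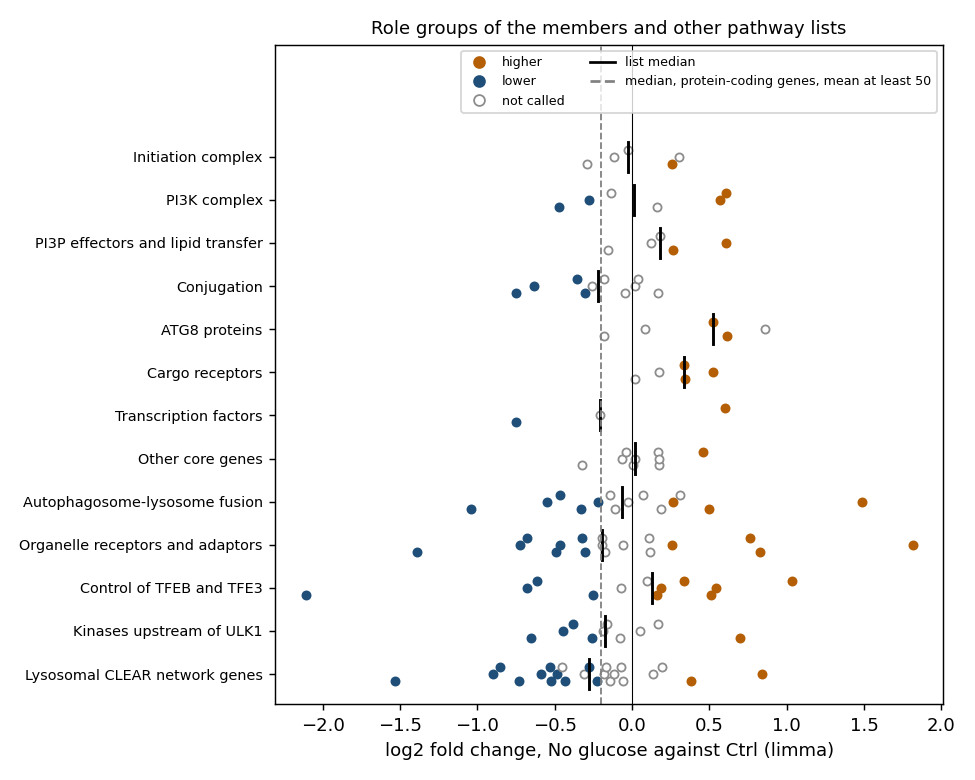
Log2 fold change of each tested gene, No glucose against Ctrl, in the role groups of the members (upper 7 rows) and the other pathway lists (lower 6 rows); black bars are list medians and the dashed line is the median of protein-coding genes with a mean of at least 50 normalized counts. The members lie between -0.75 and 0.86, while BNIP3 (1.81), EPG5 (1.49), TBK1 (-1.39), CD63 (-1.53) and TFEC (-2.11) lie farther out.

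The No glucose libraries differed from each other with base composition in protein-coding genes with a mean of at least 50. The median of ONG_10 over ONG_9 was 0.931 where the longest transcript had under 40% GC and 0.947 at 40 to 50%. It was 1.04 at 50 to 60% and 1.28 at 60% or more. Among the members this ratio was 1.63 for ULK1 (64.2% GC), 1.43 for ATG2A (64.0%), 1.36 for TFEB (57.7%), 1.31 for ATG101 (59.8%), 1.29 for ATG4D (64.8%), 1.23 for ATG4B (60.9%) and 1.21 for SQSTM1 (58.0%). It was lower in other members of similar content, at 1.13 for TFE3 (59.8%), 1.04 for ATG9A (59.8%) and 1.01 for AMBRA1 (55.5%). It was 0.901 for PIK3C3 (38.3%), 0.889 for ATG14 (44.6%), 0.975 for ATG3 (39.9%) and 0.922 for NBR1 (44.9%). The 9 members that kept their call in every alternative had at most 50.4% GC. Over all members the median was 47.8% for those called higher, 43.2% for those called lower and 50.8% for those not called. The median log2 fold change of those protein-coding genes was -0.11 under 40% GC and -0.42 at 60% or more, and -0.41 in the fifth with the shortest exon length against -0.01 in the fifth with the longest. The part of composition and length in the members' values was not tested.

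**Figure D5:**
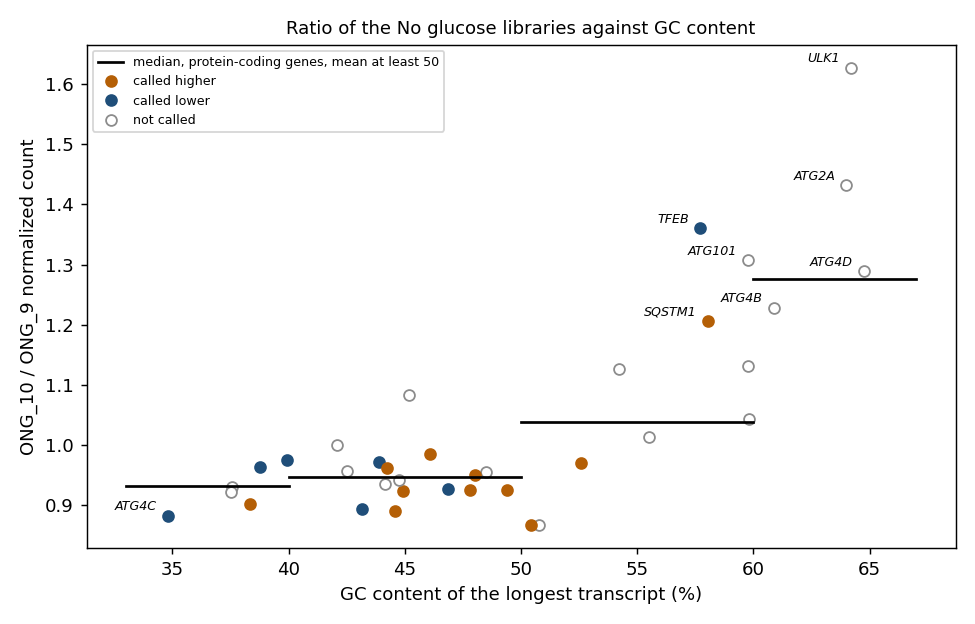
Normalized count in ONG_10 over that in ONG_9 against the GC content of the longest transcript, for the 36 members with a mean of at least 50 normalized counts; horizontal bars are medians of protein-coding genes in GC ranges. The ratio is near 0.9 to 1.0 for most members under 50% GC and reaches 1.63 for ULK1.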

How the data were processed

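Total RNA of 4 samples was sequenced with a stranded kit, per the labels' protocols. Per the submitters' processing notes, reads were processed with STAR 2.6.0c, RSEM 1.3.0 and DESeq2 1.18.1 on hg38; the annotation release and counting strand are not given in the sources used here. The signal values deposited by the authors are gene counts divided by a size factor per library. The log2 fold changes, the score (a test statistic) and the p-values of the authors' deposited table were used only to compare calls. The columns name a group but no replicate, and ONG was taken as No glucose as the only other group.

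Dividing by each library's smallest step gave values within 0.01 of whole reads for 100% of values above 0. limma 3.58.1 (trend, R 4.3.3) was run on log2(normalized count + 1), two-sided, for genes with a mean of at least 1. edgeR 4.0.16 on the recovered reads, an alternative, called 10256 of 27486 genes. DESeq2 1.42.0, limma-voom, library totals, TMM, other pseudocounts and filters, and leaving out each library were the others. Functions were tested on simulated data. Lengths, GC and positions are from GENCODE 29, where 58457 of 60609 identifiers matched; length is the union of exons, so levels per kilobase are approximate. Of the members 19 share exonic bases with a gene on the other strand. The members, lists and ratios were chosen with earlier results of these data known. By rule, values in every library are printed for called members whose log2 fold change is 0.5 or more in either direction. They are also printed for the transcription factors, ULK1, BECN1, MAP1LC3B and SQSTM1. In other lists up to 3 called genes per direction are named. UVRAG, ATG2A, GABARAP, GABARAPL2, CALCOCO2, STX17 and LAMP1 were added after their values were seen. The CLEAR genes CTSA, MCOLN1, GAA, CTSD and CTSF are named outside this rule, in the description of genes with an E-box. Intervals and limits cover counting or replicate error only.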

Additional observations from a re-analysis of the deposited data

How the results depend on the processing

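With all libraries 11 members rose and 7 fell, and their median was 0.037 on the log2 scale. The count that rose was 20 with library totals and from 6 to 15 when 1 library was left out. The count that fell was 3 with library totals, 13 with limma-voom, and from 3 to 12 when 1 library was left out. The median was 0.247 with library totals and from -0.011 to 0.057 when 1 library was left out. With library totals 8 members changed sign, to 0.067 (ULK2), 0.187 (RB1CC1), 0.075 (BECN1), 0.055 (WIPI2), 0.029 (ATG4B), 0.164 (ATG7), 0.030 (GABARAPL2) and 0.001 (TFE3). The sign changed to -0.020 (ATG4A), -0.006 (ATG12) and -0.021 (CALCOCO2) with edgeR on TMM factors and, in the same order, to -0.015, -0.007 and -0.028 with limma-voom. With edgeR on DESeq2 size factors ULK2 was 0.031. Leaving out 1 library at a time gave ranges across 0 for 9 members, from -0.050 to 0.652 (ULK1), -0.694 to 0.463 (ULK2), -0.077 to 0.029 (RB1CC1), -0.135 to 0.383 (ATG2A), -0.011 to 0.053 (ATG4A), -0.150 to 0.057 (ATG7), -0.023 to 0.096 (ATG12), -0.435 to 0.601 (MAP1LC3A) and -0.027 to 0.072 (CALCOCO2). None of the members that changed sign was called with all libraries, and the cause was not tested. Leaving out a library leaves 1 sample in its group, which is assumed to vary like the other group. No paired analysis was possible because the columns carry no replicate numbers. Low counts limit ULK2, MAP1LC3A, GABARAP and MITF, whose means are under 50 normalized counts. The level of GABARAP is also uncertain because of its shared exonic bases.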
